A study of Mus musculus with 6 samples.

Results

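Trp53, the mouse gene for the tumor suppressor p53, was examined together with 9 of its target genes that act in cell cycle arrest, feedback and stress adaptation (Cdkn1a, Mdm2, Ccng1, Zmat3, Phlda3, Gadd45a, Btg2, Sesn1 and Trp53inp1). These 10 members were fixed by gene symbol, and all 10 were found among the 23284 genes in the files. RNA was sequenced from C1498-EGFP cells, a murine acute myeloid leukemia (AML) line that carries a retroviral GFP construct and stems from a single clone. The cells had been injected into a vein of wild-type C57BL/6 J mice, which were female by the study's general statement. GFP+ CD49b+ cells were sorted from femur, tibia and pelvis on day 21 after the injection. There were 3 cytarabine-treated mice and 3 control mice with 1 library per mouse, and libraries are called by their group and number. The controls were described both as untreated and as PBS-treated. The paper gives a cytarabine dose for its imaging and survival mice but not for these mice in particular. The mutation status of Trp53 in the line is not given in the sources used here.

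p53 is a transcription factor that is kept scarce in unstressed cells because Mdm2, a ubiquitin ligase, marks it for degradation. DNA damage or stalled replication, which cytarabine causes once it is built into DNA, activates the kinases Atm, Atr, Chek1 and Chek2, after which p53 protein accumulates and switches on its targets. Much of this control acts on the protein, so the mRNAs of targets are the usual readout of p53 activity in expression data. Cdkn1a encodes p21, the inhibitor of cyclin-dependent kinases that holds cells in arrest, whereas Mdm2, Ccng1 and Ppm1d act back on p53 itself.

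To show where p53 could bind near the members, RefSeq promoter windows (GRCm38.p6, from 250 bases before to 50 bases after a start site) were searched for the p53 decamer, the 10-base unit of which a p53 response element holds a pair. The decamer is a run of purines, C, A or T, A or T, G and a run of pyrimidines, and both strands give the same pattern. Only exact matches were counted. Stretches that differ from the pattern by a letter, as beside the decamers of Cdkn1a and Ccng1, stay in small letters below. Windows were given for 8 of the 10 members, without Zmat3 and Trp53inp1. The decamer was in 6 of the 10 windows of these members, against 8.36% of 32851 windows over all genes. A pair of decamers with at most 13 bases between them was in 24 of the 32851 windows (0.0731%), among them the upstream window of Cdkn1a. The stretches that hold a decamer are shown with the decamer in capitals, each 5′ to 3′ on the strand of its gene.
Cdkn1a, chr17:29090886-29090957, plus strand: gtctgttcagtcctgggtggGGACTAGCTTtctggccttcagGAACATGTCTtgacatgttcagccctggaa
Trp53, chr11:69580264-69580313, plus strand: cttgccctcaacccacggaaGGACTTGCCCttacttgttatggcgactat
Mdm2, chr10:117710915-117710964, minus strand: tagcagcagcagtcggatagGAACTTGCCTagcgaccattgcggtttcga
Ccng1, chr11:40755442-40755491, minus strand: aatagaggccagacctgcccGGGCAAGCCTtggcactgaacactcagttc
Gadd45a, chr6:67037418-67037467, minus strand: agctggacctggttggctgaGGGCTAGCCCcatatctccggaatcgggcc
Sesn1, chr10:41887246-41887295, plus strand: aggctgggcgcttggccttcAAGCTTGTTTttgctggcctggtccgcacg
The Cdkn1a stretch lies before the upstream of its 2 start sites, and the other start site is 2790 bases further along the gene. Its 2 decamers lie 12 bases apart, and the letters tgacatgttc follow directly on GAACATGTCT. Those letters differ from the pattern in their opening letter, so they were not counted. Which of these letters form a response element was not tested. The windows of Btg2 and Phlda3 and the other windows of Cdkn1a and Sesn1 held no whole decamer. The Phlda3 window ends in gaacatgt, letters that match the start of the pattern, and the bases after it were not searched. A match is a description of the letters and not a measured binding site.

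Levels are given in FPKM, a unit scaled to transcript length and library size. It does not correct for differences in the RNA make-up of the libraries. Differences were tested with limma on log2(FPKM + 1) over the 11703 genes whose mean reached 1 FPKM, and each log2 fold change is cytarabine minus control on that scale, which understates the difference of low genes. Inferred library totals ranged from 11500000 to 18800000 reads. At these totals 3 reads correspond to between 0.0848 and 0.139 FPKM for Cdkn1a and to between 0.129 and 0.211 FPKM for Phlda3, and these limits cover counting error only.

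The libraries held transcripts of other tissues in unequal amounts, and the source of these transcripts was not tested. The summed level of 12 colon epithelium markers was 396, 5509 and 5723 FPKM in cytarabine 1, 2 and 3, compared with 2553, 28.6 and 21.5 FPKM in control 1, 2 and 3, and of these markers Phgr1 was at 0 in control 3 and none was at 0 elsewhere. Cytarabine 2, cytarabine 3 and control 1 are therefore called the libraries with more colon transcript, and the other 3 those with less. Each difference given within a side thus rests on 1 library in one of its groups and was not tested. The 6 smooth muscle markers followed the same division, with sums of 122, 1003 and 1165 FPKM after cytarabine and 953, 167 and 24.3 FPKM in controls. The 7 heart markers did not, with sums of 7.46, 22.5 and 685 FPKM and 2518, 539.9 and 52.5 FPKM, and Myl7 was at 0 in cytarabine 1 and control 3. The 8 neutrophil markers were all lower on average with cytarabine, and their sum was between 189 and 1433 FPKM with cytarabine and between 1438 and 2043 FPKM in controls. The leukocyte antigen gene Ptprc was high throughout (284 to 386 FPKM), and Itga2, which encodes the sort antigen CD49b, was at 8.11, 7.79 and 7.88 FPKM after cytarabine against 10.6, 13.3 and 12.8 FPKM in controls. Of 8 myeloid leukemia markers, Flt3 was at most 0.244 FPKM, Kit at most 1.59 FPKM, and Cd33, Cebpa, Itgam and Csf1r at most 2.12, 2.18, 4.76 and 5.81 FPKM. The granule genes Mpo and Elane of the same list were highest in cytarabine 1. Mpo was at 71.1, 3.13 and 2.33 FPKM after cytarabine against 7.83, 11.04 and 12.3 FPKM in controls. Elane was at 81.7, 2.81 and 2.83 FPKM after cytarabine against 8.54, 9.94 and 8.26 FPKM in controls. The 5 erythroid markers summed to 306, 41.5 and 50.2 FPKM after cytarabine against 39.95, 70.3 and 36.6 FPKM in controls. The 4 macrophage markers summed to 94.4 FPKM in control 2 and to between 6.25 and 37.5 FPKM in the other libraries. The colon side was used as a term in the fit, and so were, each in a fit of its own and added once the values were known, a smooth muscle score and a heart score, the mean log2(FPKM + 1) of each list. In such sorted populations fewer cells of a type and less RNA per cell cannot be told apart.

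Spread over the 6 libraries differed widely among the members. Trp53, Mdm2, Ccng1, Zmat3, Gadd45a and Sesn1 varied by less than 2-fold between the lowest and the highest library, with Gadd45a the widest of them, above 71.7% of the genes tested in its spread. Trp53inp1, Btg2 and Cdkn1a varied by 7.31-fold, 10.9-fold and 36.5-fold, and Phlda3 ranged from under the level of 3 reads to 6.94 FPKM. None of the 10 members had an adjusted p under 0.05 (limma, Benjamini-Hochberg over 11703 genes), and neither had any other gene (0%). By an unadjusted p under 0.05, 1 of the 10 members was called, Trp53inp1, which was higher with cytarabine. The same rule called 17.4% of all genes tested, 7.6% higher and 9.81% lower. The groups did not overlap for 2 of the 10, Sesn1 and Trp53inp1, both higher with cytarabine, against 23.8% of all genes (10.9% higher and 12.9% lower). These counts differ little from what the shares over all genes give for 10 genes. Of the 10 log2 fold changes 6 were above 0 and 4 below, and their median was 0.11 beside -0.0015 for all genes tested.

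**Figure D1:**
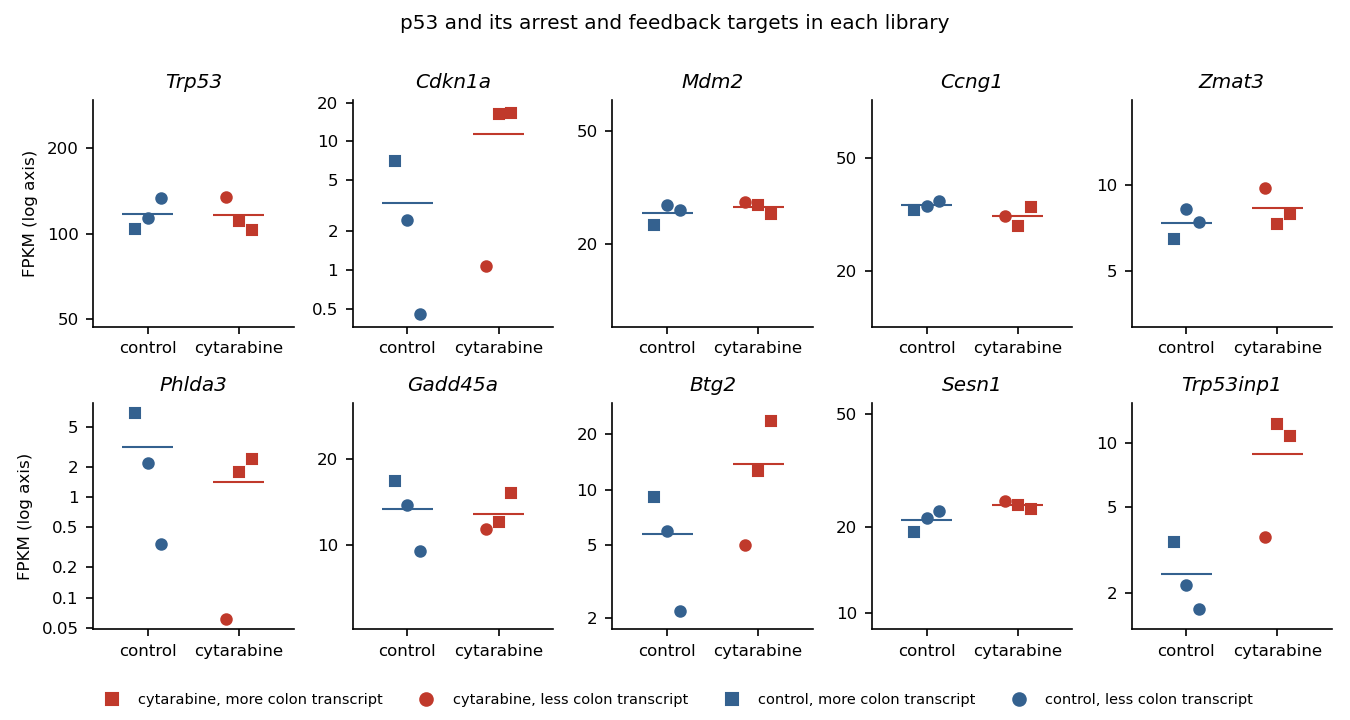
FPKM of each member (log axis, own range per panel) in the 3 control and 3 cytarabine libraries, with lines at group means and squares for the 3 libraries with more colon transcript. Trp53, Mdm2, Ccng1 and Sesn1 stay within a narrow band, whereas Cdkn1a runs from 0.457 to 16.7 FPKM and the squares lie above the circles for Cdkn1a and Btg2.

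Trp53 itself, on chromosome 11 from 69580359 to 69591873 of GRCm38, was the most abundant member. It was at 134, 111 and 103 FPKM after cytarabine against 104, 114 and 133 FPKM in controls. The group means were 116 ± 16.4 FPKM (SD, n = 3) and 117 ± 14.7 FPKM (SD, n = 3), and the groups overlapped. The log2 fold change was -0.01 with a 95% interval from -0.34 to 0.32 (adjusted p = 0.965, limma), which spans 0.789-fold to 1.25-fold. Its mean level was above that of 93.01% of the genes tested. Trp53 was lower in each library with more colon transcript than in each of the others, with means of 106 and 127 FPKM, and the part of tissue RNA in this order was not tested. With the colon side as a term in the fit the difference was 0.08 on the log2 scale (standard error 0.08, adjusted p = 0.552, limma), with the smooth muscle score 0.14 and with the heart score -0.16 (adjusted p = 0.315 and 0.267, limma). Of its paralogs, Trp63 was at most 0.213 FPKM and Trp73 at most 0.0164 FPKM.

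Of the feedback genes, Mdm2 encodes the ligase that degrades p53, and lies on chromosome 10 from 117688875 to 117710758. It was at 28.1, 27.3 and 25.5 FPKM after cytarabine against 23.3, 27.3 and 26.4 FPKM in controls. Control 1 was the lowest library, and the groups overlapped. A log2 fold change of 0.07 was fitted, with a 95% interval from -0.13 to 0.27 (adjusted p = 0.643, limma), or 0.911-fold to 1.21-fold. Only 12.1% of the genes tested had a smaller spread over the 6 libraries. Its partner Mdm4, which binds and restrains p53, was likewise level at 15.4 to 17.8 FPKM.

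Ccng1 encodes cyclin G1, which recruits a phosphatase to Mdm2, and lies on chromosome 11 from 40748552 to 40755311. It was at 31.1, 28.7 and 33.5 FPKM after cytarabine against 32.8, 33.8 and 35.2 FPKM in controls. Cytarabine 1 and 2 were below every control and cytarabine 3 was within the controls. Its log2 fold change was -0.12 with a 95% interval from -0.31 to 0.06 (adjusted p = 0.402, limma). The paralog Ccng2 was not level, at 7.98, 25.9 and 23.1 FPKM after cytarabine against 16.5, 11.00 and 9.60 FPKM in controls, and was higher in each library with more colon transcript than in each of the others.

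Zmat3 encodes an RNA-binding zinc finger protein and lies on chromosome 3 from 32334792 to 32366014. It was at 9.76, 7.32 and 7.89 FPKM after cytarabine against 6.48, 8.21 and 7.42 FPKM in controls. Cytarabine 1 was the highest and control 1 the lowest, and the groups overlapped. The difference was 0.15 on the log2 scale (standard error 0.14, adjusted p = 0.534, limma). It was 0.29 within the libraries with less colon transcript and 0.20 within those with more, and with the colon side as a term it was 0.25 (standard error 0.09, unadjusted p = 0.0323, adjusted p = 0.161, limma). With the smooth muscle and heart scores it was 0.27 and 0.08 (adjusted p = 0.292 and 0.741, limma).

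The arrest genes differed in their spread. Cdkn1a, on chromosome 17 from 29090976 to 29100727, was at 1.07, 16.5 and 16.7 FPKM in cytarabine 1, 2 and 3, whereas control 1, 2 and 3 held 7.07, 2.46 and 0.457 FPKM. Cytarabine 2 and 3 were above every control, and cytarabine 1 was below 2 of the 3 controls. Mean levels were 11.4 ± 8.95 FPKM (SD, n = 3) with cytarabine and 3.33 ± 3.39 FPKM (SD, n = 3) in controls. The log2 fold change was 1.33 with a 95% interval from -1.22 to 3.88 (adjusted p = 0.489, limma), wide enough to hold both a 2-fold lower and a 2-fold higher level. The spread of Cdkn1a over the 6 libraries was above that of 96.5% of the genes tested.

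Cdkn1a differed between the sides of the colon division. The 3 libraries with more colon transcript held 13.4 FPKM on average and those with less 1.33 FPKM, without overlap. Of the members Cdkn1a and Btg2 were higher on that side without overlap and Trp53 lower, where 17.2% of all genes were higher and 17.2% lower. Within the libraries with more colon transcript, Cdkn1a was at 2.33 and 2.36 times the level of control 1 in cytarabine 2 and 3, and the summed colon markers at 2.16 and 2.24 times. Within those with less, cytarabine 1 was at 0.437 times control 2 and 2.35 times control 3 for Cdkn1a, and at 13.8 and 18.4 times for the summed colon markers. With the colon side as a term Cdkn1a differed by 0.50 on the log2 scale (standard error 0.43, adjusted p = 0.491, limma). With the smooth muscle score the difference was 0.08 (standard error 0.41, adjusted p = 0.933, limma), and with the heart score 2.39 (standard error 0.83, unadjusted p = 0.0345, adjusted p = 0.143, limma). The genes most like Cdkn1a over the 6 libraries, by the root mean square difference of centred log2(FPKM + 1), were Sdc1 (0.159), Gas6 (0.164), Tmem98 (0.172), Il13ra1 (0.183) and Lgals3 (0.196). Sdc1, a cell surface proteoglycan of epithelia and plasma cells, was at 1.09, 13.2 and 14.02 FPKM after cytarabine against 6.58, 2.57 and 0.121 FPKM in controls.

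**Figure D2:**
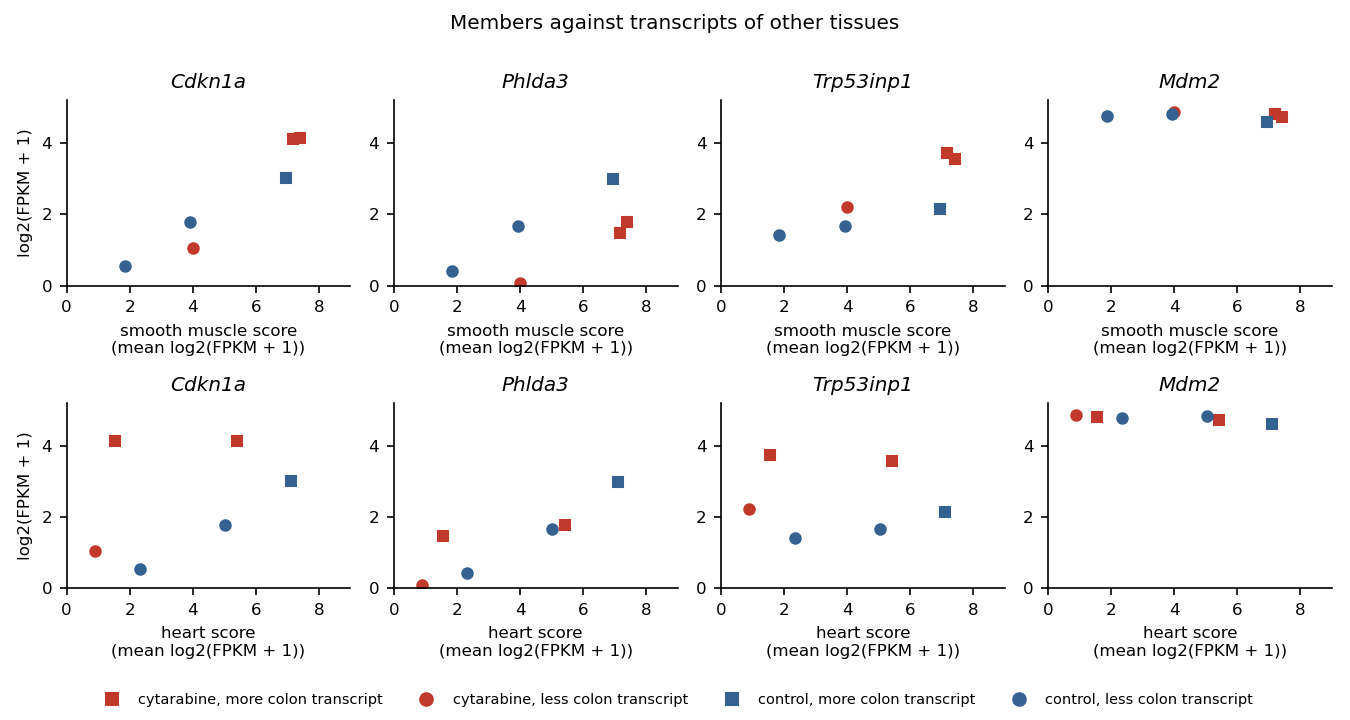
log2(FPKM + 1) of Cdkn1a, Phlda3, Trp53inp1 and Mdm2 in each library against the smooth muscle score (top) and the heart score (bottom), which are means of log2(FPKM + 1) over 6 and 7 markers. Cdkn1a is highest in the 3 libraries whose smooth muscle score is 6.95 or more, Phlda3 is highest in control 1, which has the highest heart score of 7.11, and Mdm2 is level on both axes.

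Of the other Cdk inhibitors of the family, Cdkn1b (p27) was at 17.03, 25.8 and 25.3 FPKM after cytarabine against 21.96, 16.2 and 17.2 FPKM in controls (log2 fold change 0.27, adjusted p = 0.45, limma). Cdkn1c (p57) was at 3.41, 3.29 and 2.90 FPKM after cytarabine against 5.32, 5.26 and 6.46 FPKM in controls. Every cytarabine library was below every control for Cdkn1c, by -0.67 on the log2 scale (standard error 0.12, unadjusted p = 0.00178, adjusted p = 0.137, limma). It was -0.63 within the libraries with less colon transcript and -0.63 within those with more.

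Gadd45a encodes a small stress protein that binds p21 and PCNA, and lies on chromosome 6 from 67035096 to 67037457. It was at 11.4, 12.02 and 15.3 FPKM after cytarabine against 16.7, 13.8 and 9.53 FPKM in controls, and the groups overlapped. A log2 fold change of -0.02 had a 95% interval from -0.55 to 0.51 (adjusted p = 0.954, limma). An antisense transcript, E230016M11Rik, overlaps 859 bases of the gene and was at a mean of 1.90 FPKM. The libraries were made with a stranded kit, but whether strand was used in counting is not given in the sources used here. Its paralog Gadd45b was at 7.26, 10.99 and 11.6 FPKM after cytarabine against 7.53, 6.53 and 3.76 FPKM in controls (log2 fold change 0.68, unadjusted p = 0.0492, adjusted p = 0.285, limma). Gadd45g ranged from 1.39 to 24.5 FPKM, with control 1 the highest and control 3 the lowest.

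Btg2 encodes an antiproliferative protein that speeds the removal of mRNA tails, and lies on chromosome 1 from 134075170 to 134079120. It was at 4.97, 12.6 and 23.7 FPKM after cytarabine against 9.14, 5.93 and 2.16 FPKM in controls. Cytarabine 2 and 3 were the highest libraries and cytarabine 1 was within the controls. The mean was 13.7 ± 9.41 FPKM (SD, n = 3) with cytarabine and 5.75 ± 3.49 FPKM (SD, n = 3) in controls. Its log2 fold change was 1.06 with a 95% interval from -0.52 to 2.63 (adjusted p = 0.399, limma). With the colon side as a term it was 0.60 (standard error 0.39, adjusted p = 0.375, limma), with the smooth muscle score 0.31 (standard error 0.31, adjusted p = 0.614, limma), and with the heart score 1.86 (standard error 0.30, unadjusted p = 0.00143, adjusted p = 0.124, limma). Btg1, its nearest relative, was at 3.39, 18.6 and 19.9 FPKM after cytarabine against 9.83, 5.89 and 1.94 FPKM in controls and, like Btg2, was higher in each library with more colon transcript than in each of the others.

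The remaining members act on growth signalling and stress adaptation. Trp53inp1, a nuclear and autophagy protein that promotes phosphorylation of p53, lies on chromosome 4 from 11156431 to 11174379. It was at 3.65, 12.3 and 10.8 FPKM in cytarabine 1, 2 and 3, whereas control 1, 2 and 3 held 3.44, 2.17 and 1.68 FPKM. Every cytarabine library was above every control, although cytarabine 1 exceeded control 1 by little. Mean levels were 8.93 ± 4.63 FPKM (SD, n = 3) with cytarabine and 2.43 ± 0.907 FPKM (SD, n = 3) in controls, a ratio of 3.67. The log2 fold change was 1.43 with a standard error of 0.44 and a 95% interval from 0.34 to 2.52 (unadjusted p = 0.0187, adjusted p = 0.213, limma). By p it ranked 1029 among the 11703 genes.

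Trp53inp1 was higher with cytarabine on both sides of the colon division. Cytarabine 2 and 3 were at 3.58 and 3.15 times control 1, and cytarabine 1 was at 1.68 times control 2 and 2.17 times control 3. With the colon side as a term the difference was 1.09 on the log2 scale (standard error 0.21, unadjusted p = 0.00269, adjusted p = 0.0588, limma). In that fit 3.24% of all genes and 0 of the 10 members had an adjusted p under 0.05 (limma), a count that differs little from that share. At an unadjusted p under 0.05 (limma) there were 4 members, against 25.3% of all genes (14.4% higher). Of these members Trp53inp1, Sesn1 and Zmat3 were higher with cytarabine and Phlda3 was lower. With the smooth muscle score Trp53inp1 was at 0.95 (adjusted p = 0.163, limma) and with the heart score at 1.79 (adjusted p = 0.127, limma) on the log2 scale. The division does not level all colon transcript, since cytarabine 1 held 13.8 times the summed markers of control 2 and 18.4 times those of control 3. The neutrophil markers also differed between the groups, and their part was not tested. The unadjusted p was between 0.0546 and 0.0612 (limma) when cytarabine 2, cytarabine 3, control 2 or control 3 was left out, and 0.0542 with the replicate block. The paralog Trp53inp2 overlapped between the groups, at 2.45, 8.12 and 12.9 FPKM after cytarabine against 12.3, 4.40 and 1.76 FPKM in controls.

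Sesn1 encodes a sestrin, which restrains mTORC1 under stress, and lies on chromosome 10 from 41809935 to 41908424. It was at 24.8, 23.9 and 23.2 FPKM after cytarabine against 19.3, 21.6 and 22.8 FPKM in controls. Every cytarabine library was above every control, by a small margin. The difference was 0.17 on the log2 scale with a 95% interval from -0.03 to 0.37 (unadjusted p = 0.0784, adjusted p = 0.327, limma), whose upper end is 1.29-fold. With the colon side as a term it was 0.22 (standard error 0.07, unadjusted p = 0.0181, adjusted p = 0.123, limma), and with the smooth muscle and heart scores 0.24 and 0.10 (adjusted p = 0.144 and 0.401, limma). It was 0.15 within the libraries with less colon transcript and 0.28 within those with more. Sesn2, which is also a target of the amino acid stress factor ATF4, was at 5.75, 7.68 and 5.66 FPKM after cytarabine against 10.3, 8.90 and 8.80 FPKM in controls, with every cytarabine library below every control (log2 fold change -0.50, standard error 0.14, unadjusted p = 0.0108, adjusted p = 0.185, limma). Sesn3 was at 23.04 to 29.3 FPKM (log2 fold change -0.14, adjusted p = 0.394, limma).

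Phlda3 encodes a small protein that competes with Akt for membrane lipids, and lies on chromosome 1 from 135766119 to 135769136. It was at 0.0604, 1.80 and 2.43 FPKM after cytarabine against 6.94, 2.17 and 0.343 FPKM in controls. The value of cytarabine 1 is under the level of 3 reads, 0.186 FPKM, so it was not distinguishable from 0 at this depth. Control 1 was the highest library and cytarabine 3 the next. Its log2 fold change was -0.58 with a 95% interval from -2.46 to 1.31 (adjusted p = 0.675, limma). With the colon side as a term it was -1.16 (unadjusted p = 0.0224, adjusted p = 0.136, limma), with the smooth muscle score -1.53 (unadjusted p = 2.55e-04, adjusted p = 0.0857, limma), and with the heart score 0.30 (adjusted p = 0.706, limma). The sign of the estimate thus differed between these fits, and the 95% interval with the heart score ran from -0.96 to 1.56.

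**Figure D3:**
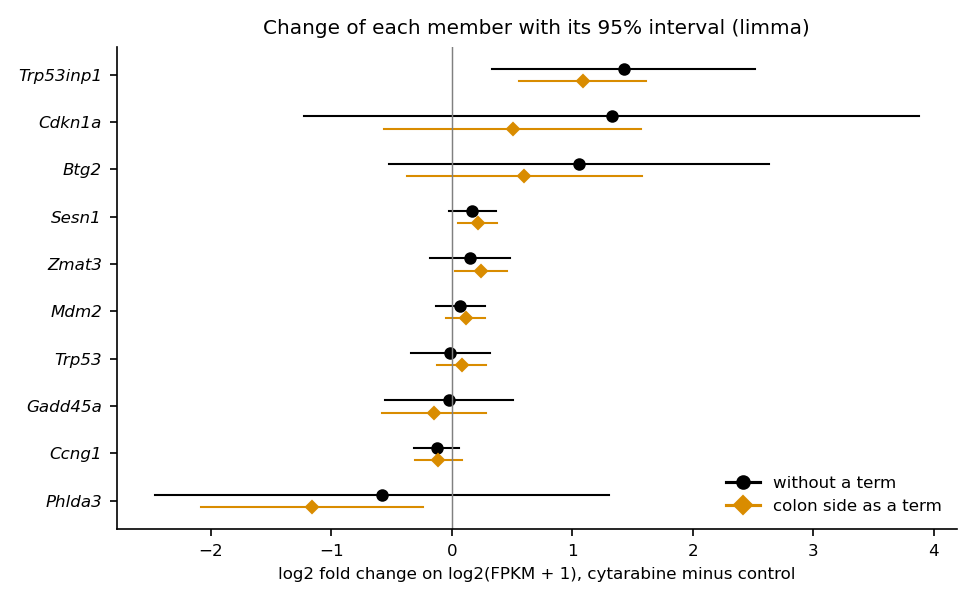
Log2 fold change of each member with its 95% interval from limma, without a term (circles) and with the colon side as a term (diamonds). The intervals of Trp53, Mdm2, Ccng1, Zmat3 and Sesn1 are short and near 0, those of Cdkn1a, Btg2 and Phlda3 are long, and Trp53inp1 lies above 0 in both fits, at 1.43 and 1.09.

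**Figure D4:**
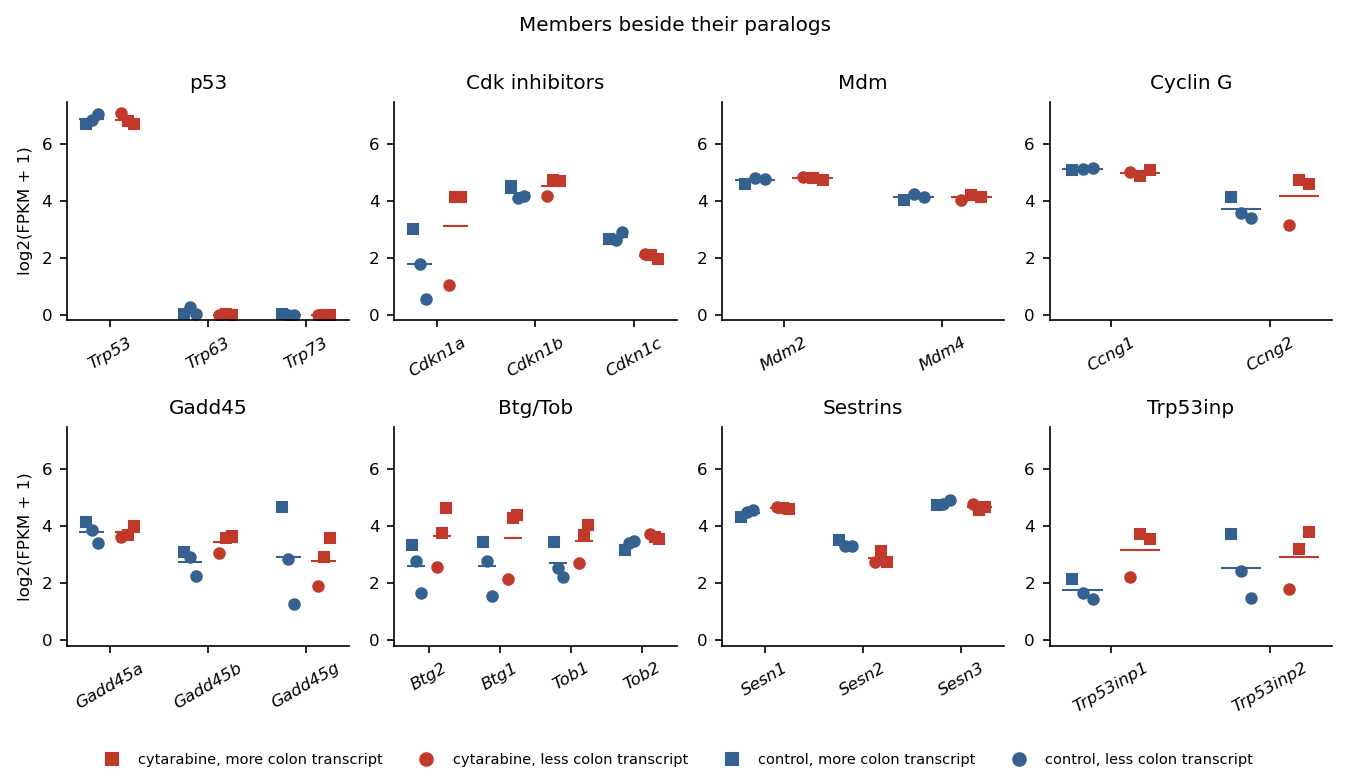
log2(FPKM + 1) of the members and their paralogs in each library, with lines at group means and squares for the libraries with more colon transcript. Within the sestrins, Sesn1 is higher and Sesn2 lower in every cytarabine library. The squares and the circles do not overlap for Trp53, Cdkn1a, Cdkn1b, Ccng2, Gadd45b, Gadd45g, Btg2, Btg1, Tob1, Sesn3 and Trp53inp2.

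Other genes of the p53 network were described by lists. Their counts stand beside 7.6% of all genes higher and 9.81% lower at an unadjusted p under 0.05 (limma). The lists were chosen with earlier results of these data known, so the counts are descriptions, and no list was tested as a set. Of 12 targets that act in cell death, 11 were tested, 6 with a log2 fold change above 0 and 5 below, and the median was 0.03. By an unadjusted p under 0.05, 1 was higher and 0 lower (limma). The death receptor gene Fas was at 4.93, 5.59 and 6.32 FPKM after cytarabine against 2.84, 3.88 and 2.39 FPKM in controls, without overlap (log2 fold change 0.72, standard error 0.17, unadjusted p = 0.00638, adjusted p = 0.166, limma). Bbc3, which encodes the BH3-only protein PUMA, was lower in every cytarabine library, at 4.34, 4.79 and 4.09 FPKM after cytarabine against 9.37, 5.27 and 5.48 FPKM in controls (log2 fold change -0.47, adjusted p = 0.317, limma). Bax, the pore-forming effector, was level at 49.96 to 58.6 FPKM, and Ei24 was at 47.2 to 55.02 FPKM. Perp, an epithelial junction protein, ranged from 0.153 FPKM in control 3 to 27.1 FPKM in cytarabine 2 (log2 fold change 2.27, standard error 1.29, adjusted p = 0.383, limma), and was higher in each library with more colon transcript than in each of the others.

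Of 10 targets of DNA repair and metabolism, 7 were tested, with 2 above 0, 5 below and a median of -0.09. By an unadjusted p under 0.05, 1 was higher and 2 lower, against 7.6% and 9.81% of all genes. Polk, a translesion DNA polymerase, was at 6.17, 7.52 and 7.12 FPKM after cytarabine against 5.71, 5.24 and 5.66 FPKM in controls (log2 fold change 0.28, adjusted p = 0.254, limma). Rrm2b, the p53-inducible ribonucleotide reductase subunit, was level at 3.49 to 4.43 FPKM. The lower genes were Sesn2 and Fdxr, the mitochondrial ferredoxin reductase, which was at 18.4, 14.3 and 13.8 FPKM after cytarabine against 20.5, 21.6 and 24.9 FPKM in controls (log2 fold change -0.51, standard error 0.13, adjusted p = 0.182, limma).

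Of 10 other targets of arrest and feedback, 8 were tested, with 6 above 0, 2 below and a median of 0.21. Higher at an unadjusted p under 0.05 were 3 of them, Plk3, Rps27l and Ppm1d, and 0 were lower (limma), against 7.6% and 9.81% of all genes. The groups did not overlap for these 3 of the 8 tested, against 10.9% of all genes higher without overlap. Plk3, a stress-activated kinase that phosphorylates p53, was at 6.55, 8.26 and 7.73 FPKM after cytarabine against 4.73, 4.50 and 4.00 FPKM in controls (log2 fold change 0.65, standard error 0.12, unadjusted p = 0.00155, adjusted p = 0.137, limma). Rps27l, a ribosomal protein homolog induced by p53, was at 537, 541 and 462 FPKM after cytarabine against 435, 401 and 405 FPKM in controls (log2 fold change 0.31, standard error 0.08, adjusted p = 0.183, limma). Ppm1d, which encodes the phosphatase WIP1 that switches p53 off again, was at 14.9, 17.7 and 14.2 FPKM after cytarabine against 11.8, 11.7 and 14.2 FPKM in controls, with cytarabine 3 and control 3 nearly equal (log2 fold change 0.29, adjusted p = 0.281, limma). Plk2 and Gtse1 had log2 fold changes of -0.23 and -0.21 (adjusted p = 0.8 and 0.436, limma).

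The 17 kinases and cofactors that act on p53 were all tested, with 3 above 0, 14 below and a median of -0.13. By an unadjusted p under 0.05, 0 were higher and 2 lower (limma), against 7.6% and 9.81% of all genes. The lower genes were the acetyltransferases Crebbp, at 8.66, 7.84 and 7.30 FPKM after cytarabine against 10.04, 10.3 and 11.3 FPKM in controls (log2 fold change -0.37, adjusted p = 0.171, limma), and Kat5 (log2 fold change -0.20, adjusted p = 0.278, limma). Hipk2 and Chek1 had log2 fold changes of 0.15 and 0.06 (adjusted p = 0.537 and 0.824, limma). In 9 of the 17 every library with more colon transcript was below every other library, against 17.2% of all genes. Cdkn2a, which gives rise to the Mdm2 inhibitor p19Arf, was at 64.1 to 85.7 FPKM.

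Of 17 paralogs of the members, 13 were tested, with 8 above 0, 5 below and a median of 0.27. Higher at an unadjusted p under 0.05 were Tob2 and Gadd45b, and lower were Cdkn1c and Sesn2, 2 of 13 each way against 7.6% and 9.81% of all genes. Tob2 was at 12.1, 11.4 and 10.8 FPKM after cytarabine against 7.92, 9.53 and 10.2 FPKM in controls (log2 fold change 0.29, adjusted p = 0.268, limma). In 7 of the 13 every library with more colon transcript was above every other library, against 17.2% of all genes. No gene of these 5 lists had an adjusted p under 0.05 (limma).

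**Figure D5:**
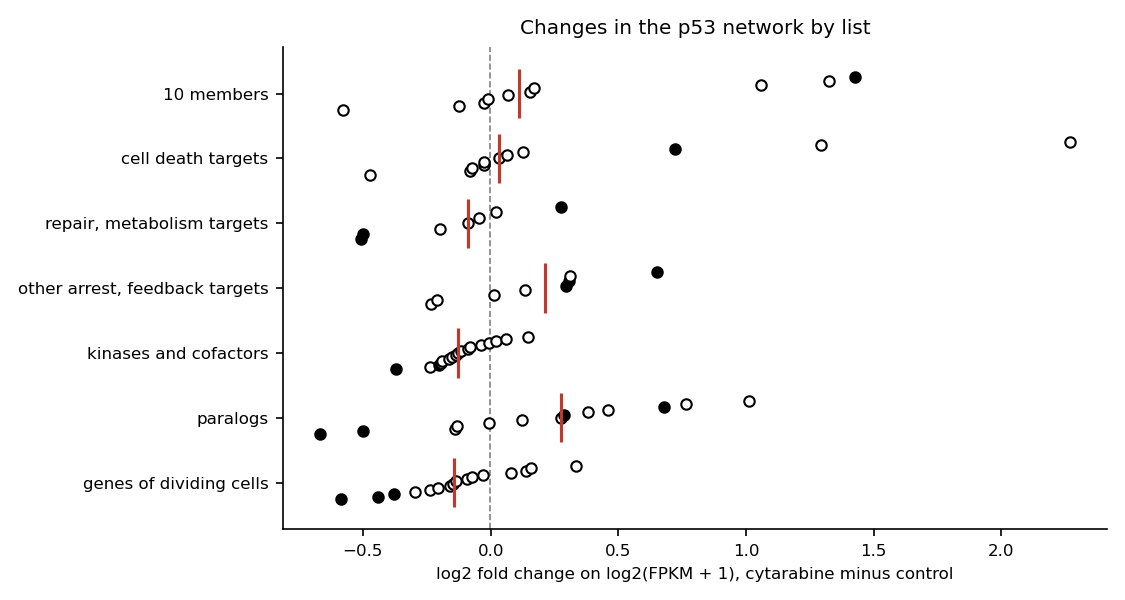
Log2 fold change of each tested gene, cytarabine minus control, by list, with filled circles for an unadjusted p under 0.05, red bars at list medians and a dashed line at the median of all genes tested. The medians lie between -0.14 for genes of dividing cells and 0.27 for the paralogs, and Trp53inp1 is the 1 filled circle among the 10 members.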

How the data were processed

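RNA from sorted C1498-EGFP cells of 3 cytarabine-treated and 3 control mice had been sequenced single-end from a stranded mRNA kit. The submitters' processing notes name TopHat2 2.0.13, Bowtie2 2.2.3, SAMtools 0.1.19 and Cufflinks 2.2.1 with mm10. The deposited values were FPKM, which already divide out length and library size, so no count test was run. The annotation is not given in the sources used here. Groups and replicate numbers came from the sample labels.

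The R package limma 3.58.1 (R 4.3.3; lmFit, then eBayes with trend, two-sided, Benjamini-Hochberg) was applied to log2(FPKM + 1), a pseudocount of 1, for every gene whose mean reached 1 FPKM. The step was tested on simulated data with independent noise for each gene, and so without the tissue transcripts shared among genes in these libraries. Reads per library were estimated from the spacing of low FPKM values at genes with 1 transcript, taking fragments of 200 bases. Since 71.1% to 74.8% of those values lay within 0.1 of a whole read, the totals are approximate. Positions are from GENCODE M21 (GRCm38). Older symbols were matched for Pidd1 (Lrdd), Tigar (9630033F20Rik), Trp53cor1 and some markers. The colon list lacks Clca1, whose symbol is ambiguous, and Muc2, which was not matched.

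All 10 members were named, and from each other p53 list up to 2 genes per direction with the smallest p, and the 5 genes most like Cdkn1a. Bax, Ppm1d, Cdkn2a, Mki67, Aurkb, Mcm2, Pcna, and paralogs outside this rule were picked with their values in view. Members and lists were chosen with earlier results of these data known. Alternatives were other pseudocounts, filters, scalings and eBayes settings, the replicate block, tissue terms and leaving out each library. Plots were made in matplotlib 3.10.9 (Python 3.11.15).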

Additional observations from a re-analysis of the deposited data

How the results depend on the processing

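Of the values of the 10 members under the alternatives, none passed an adjusted p under 0.05 (limma). The log2 fold change of Trp53 changed sign, to 0.0081 with an equal sum per library, 0.0053 with median-of-ratios factors, 0.083 with the colon side as a term, 0.14 with the smooth muscle score as a term, and 0.13 and 0.038 within the libraries with less and with more colon transcript. That of Cdkn1a was -0.11 within the libraries with less colon transcript. With the heart score as a term Phlda3 had 0.30 and Gadd45a 0.24, and both scores were made terms after the data were seen. Phlda3 was not tested with a mean of at least 5 FPKM. When each library was left out in turn, Trp53 ranged from -0.12 to 0.084, Gadd45a from -0.23 to 0.14, Phlda3 from -1.21 to 0.070, Cdkn1a from 0.71 to 2.35, Btg2 from 0.57 to 1.595, Zmat3 from 0.045 to 0.23, Mdm2 from 0.0041 to 0.11, Ccng1 from -0.18 to -0.069, Sesn1 from 0.11 to 0.22 and Trp53inp1 from 1.14 to 1.90. Without cytarabine 1 the adjusted p of Trp53inp1, Cdkn1a and Btg2 was 0.0502, 0.1004 and 0.124 (limma).

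Genes at an adjusted p under 0.05 numbered 0 (2038 at an unadjusted p under 0.05, limma). There was 1 with a pseudocount of 0.1, 2 with eBayes without trend, 1 with the robust trend, 379 with the colon side as a term, 1 with the heart score, and 0 to 6 when 1 library was left out. Genes at an unadjusted p under 0.05 were 994 with the replicate block, 3538 with the heart score and 1176 to 4111 when 1 library was left out. Members at an unadjusted p under 0.05 numbered 1. There were 2 with an equal sum per library (17.8% of all genes) and 2 with median-of-ratios factors (18.8%), 0 with the replicate block (8.49%), 4 with the colon side (25.3%), 3 with the smooth muscle score (19.8%) and 3 with the heart score (30.2%). When 1 library was left out there were 0 to 3, with 3 without cytarabine 1 (34.8% of all genes) and 0 without cytarabine 2, cytarabine 3, control 2 or control 3 (9.94% to 11.1%). Members without overlap ranged from 2 to 4 in those fits, where 29.2% to 55.8% of all genes did not overlap, with 4 and 55.8% without cytarabine 1. The cause was not tested.

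Same-numbered libraries are different mice and share only a number. Their deviations correlated at -0.709, -0.247 and -0.594 across genes, and with the replicate block genes at an unadjusted p under 0.05 fell from 2038 to 994.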

Other observations

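Genes of dividing cells, many of which are silenced when p21 holds cells in arrest, were expressed in both groups, with means over the 6 libraries from 11.8 FPKM for Aurka to 526 FPKM for Pcna. Mki67, a marker of cycling cells, was at 101, 87.1 and 94.2 FPKM after cytarabine against 86.1, 108 and 108 FPKM in controls (log2 fold change -0.09, standard error 0.11, adjusted p = 0.652, limma). Of 16 such genes 12 were below 0 and 4 above, with a median log2 fold change of -0.14. Lower at an unadjusted p under 0.05 were 3 (Plk1, Cdc25c and Aurkb) and higher 0 (limma), beside 9.81% of all genes lower and 7.6% higher. The mitotic kinase gene Plk1 was at 28.05, 26.6 and 23.2 FPKM after cytarabine against 34.1, 42.8 and 41.5 FPKM in controls, without overlap (log2 fold change -0.58, standard error 0.12, unadjusted p = 0.00263, adjusted p = 0.149, limma). Cdc25c, the phosphatase that starts mitosis, was at 13.03, 8.65 and 10.1 FPKM after cytarabine against 13.2, 15.1 and 15.4 FPKM in controls (log2 fold change -0.44, adjusted p = 0.237, limma). Ccnb2, a partner cyclin of Cdk1, was higher in every cytarabine library, at 69.6, 84.5 and 65.8 FPKM after cytarabine against 46.8, 64.8 and 63.1 FPKM in controls (log2 fold change 0.33, adjusted p = 0.331, limma). E2f1, an activator of replication genes, had a log2 fold change of 0.16 (adjusted p = 0.503, limma). The replication genes Mcm2 and Pcna, the latter also a p53 target, had log2 fold changes of 0.14 and 0.08 (adjusted p = 0.548 and 0.661, limma). In 8 of the 16 genes every library with more colon transcript was below every other library, against 17.2% of all genes. The part of tissue RNA in these levels was not tested.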
